A study of Mus musculus with 4 samples.

Results

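The genes described are 32 that sense double-stranded RNA, carry the interferon signal or carry out the response, taken as a fixed list by gene symbol. The list was chosen with earlier results of these data known. The mRNA table has 13815 rows and holds 27 of the 32. Ifih1, Irf7, Isg15, Ifit3 and Usp18 have no row and were not analysed here. By role the 27 are 6 sensors of double-stranded RNA or editors of it, 10 signalling factors and 11 effectors. Polyadenylated RNA came from mouse embryonic stem cells of 3 genotypes, all labelled with the strain V6.5, a hybrid line in common use. The groups are WT, dgcr8-/- and dicer-/- cells (the latter pair named Dgcr8 knockout and Dicer knockout in the plots), grown in serum medium with ESGRO, a preparation of leukaemia inhibitory factor, and no treatment with RNA, virus or interferon is labelled. The labels do not describe the knockout alleles, or say whether each knockout is 1 clone or whether feeder cells were used. A small RNA library was made from WT cells only. Each group has 1 library, so every difference below compares libraries, no replicate error can be given, no test was made and there are no p-values.

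Cells meet double-stranded RNA in the endosome through the receptor TLR3 and in the cytoplasm through the helicases RIG-I (Ddx58) and MDA5 (Ifih1). The helicases signal through the mitochondrial adaptor MAVS to the transcription factors IRF3 and IRF7 and so to the type I interferon genes. Secreted interferon binds the receptor of IFNAR1 and IFNAR2, the kinases JAK1 and TYK2 phosphorylate STAT2, and STAT2 works with IRF9 to switch on interferon-stimulated genes. Embryonic stem cells are known for making little interferon when given double-stranded RNA. DGCR8 and Dicer both act on double-stranded RNA: DGCR8 helps Drosha release the miRNA hairpin, and Dicer cuts that hairpin, and can cut longer duplexes, into small RNAs.

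The libraries hold 9931625 counts in WT, 11123498 in dgcr8-/- cells and 12309100 in dicer-/- cells, and values are given as CPM, the count for each 1000000 counts in the table. Intervals in parentheses are exact 95% binomial intervals, which cover counting error only. They are too narrow if both mates of a read pair were counted, since 69.6% to 74.8% of the counts from 2 to 9 were even. Dgcr8 had 523 counts in WT and 232 in its knockout, and Dicer1 had 794 and 247 in the same way, so each targeted gene was lower where labelled and not at 0. All 10 stem cell markers fixed for the check had rows, with a summed level of 11603 CPM in WT, 7721 CPM in dgcr8-/- cells and 8288 CPM in dicer-/- cells. Their median log2 ratios to WT were -0.06 and -0.24. In each knockout 3 of the 10 were at least 2-fold lower, beside 7.67% of all rows in dgcr8-/- cells and 9.41% in dicer-/- cells. The summed markers of feeder and blood cells were highest in WT, and those of endothelial cells highest in dicer-/- cells. Those of feeder fibroblasts (5 of 10 with a row) summed to 44.5, 11.4 and 3.25 CPM in that order, and S100a4 was at 0 in dgcr8-/- cells. Those of macrophages and blood cells (4 of 10 with a row; Ptprc and Csf1r have none) summed to 26.9, 17.4 and 7.56 CPM, and Itgam was at 0 in dgcr8-/- cells. Those of endothelial cells (7 of 8) summed to 14.1, 24.9 and 84.8 CPM. In dicer-/- cells 4 of the 7 were at least 2-fold higher than in WT, beside 15.5% of all rows, and the median log2 ratio of the 7 was 1.57. The part of these cell types in the results below was not tested, and in bulk RNA fewer cells of a type and less RNA per cell cannot be told apart.

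In dgcr8-/- cells, 14 of the 27 response genes were at least 2-fold higher than in WT and 0 were at least 2-fold lower, counted on log2(CPM + 1). The same call took in 13.7% of all 13815 rows as higher and 7.67% as lower. The 14 were the sensors Zbp1, Tlr3 and Ddx58, the signalling genes Mavs, Irf1, Irf2 and Irf9, and the effectors Oas1a, Oas2, Oasl1, Oasl2, Rsad2, Ifitm1 and Ifitm3. The median log2 ratio of the 27 genes was 1.21, beside 0.11 for all rows, and 24 of the 27 lay above 0, beside 56.2% of all rows. With the 3 genes at 0 in WT set at their lower bounds, the median was 1.24. The call needs at least 1 CPM in the higher library. Of the 7 genes under 1 CPM in WT, which could therefore only come out higher, 5 did, and of the 20 genes at 1 CPM or more in WT 9 did. Every row reaches 10 counts in 1 library, so those 7, each under 10 counts in WT, have a row only through a knockout. The matching shares of all rows, split by WT level, were not computed. Median-ratio scaling shifted the median of all rows by -0.12 and gave 1558 higher and 1349 lower rows in place of 1891 and 1060, a share of higher calls of 53.6% in place of 64.1%. It gave 14 higher and 1 lower response gene, the latter Bst2.

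In dicer-/- cells, 9 of the 27 were at least 2-fold higher than in WT and 2 at least 2-fold lower. The call took in 15.5% of all rows as higher and 9.41% as lower. The 9 were Zbp1, Irf1, Irf2, Irf9, Oas1a, Oasl2, Rsad2, Ifitm1 and Ifitm3, and the 2 were the helicase gene Dhx58 and the effector gene Bst2. The median log2 ratio was 0.39, or 0.38 with Ifit1 and Rsad2, at 0 in WT, at their bounds, beside 0.11 for all rows. Of the 7 genes under 1 CPM in WT, which have a row only through a knockout, 4 were at least 2-fold higher, and of the other 20, 5 were. Both ratios use the same WT library, so a WT level that was low by chance would raise both.

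**Figure D1:**
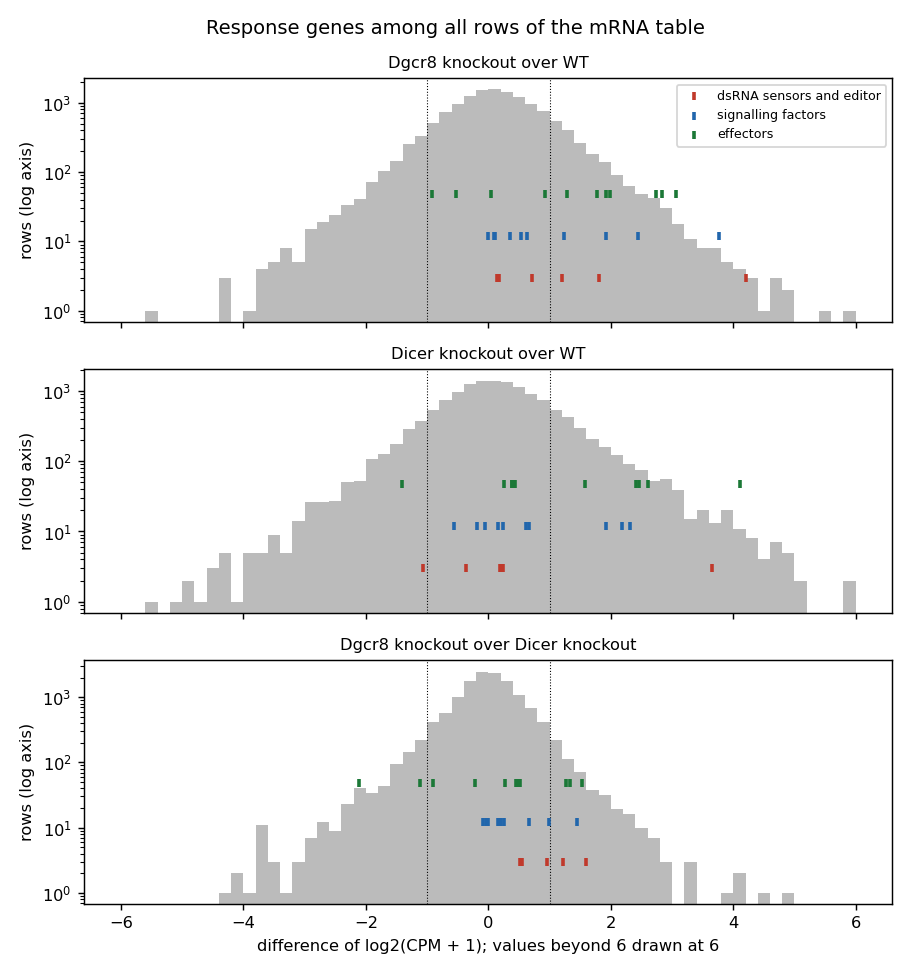
The grey bars count all rows of the mRNA table by their difference of log2(CPM + 1) in 3 comparisons, on a log axis, and the coloured ticks mark the 27 response genes by role. The dotted lines mark a 2-fold difference; 14 genes lie beyond the right line for dgcr8-/- cells over WT, 9 for dicer-/- cells over WT and 6 for dgcr8-/- over dicer-/- cells.

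Of the 6 sensors, 3 were at least 2-fold higher than WT in dgcr8-/- cells, and 1 was higher and 1 lower in dicer-/- cells. The calls over all rows were 13.7% higher and 7.67% lower in dgcr8-/- cells, and 15.5% and 9.41% in dicer-/- cells. On log2(CPM + 1) all 6 sensors lay above WT in dgcr8-/- cells, beside 56.2% of all rows. In dicer-/- cells 4 sensors lay above WT and 2 below, beside 55.4% of all rows above. Their median log2 ratios were 0.96 and 0.21. Zbp1 encodes a receptor for left-handed double-stranded nucleic acid that can start necroptosis, and it had the highest ratio to WT of the 27 genes in dgcr8-/- cells. It had 1 count in WT, 215 in dgcr8-/- cells and 158 in dicer-/- cells, or 0.10, 19.3 and 12.8 CPM. The ratios were 192 (34.1 to 7617) and 127 (22.6 to 5067), with a width set by the single WT count. On log2(CPM + 1), 0.0724% of all rows were higher than Zbp1 in dgcr8-/- cells and 0.485% in dicer-/- cells. Tlr3, the endosomal receptor gene, had 0 counts in WT, 28 in dgcr8-/- cells and 2 in dicer-/- cells. It was at least 8.33-fold higher in dgcr8-/- cells than 3 WT counts, taken as the floor for that library, and in dicer-/- cells it was at or under that floor, so no fold is given.

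Of the helicase genes, Ddx58 passed the 2-fold call against WT only in dgcr8-/- cells, as higher, and Dhx58 only in dicer-/- cells, as lower. Ddx58, which encodes RIG-I, had 240 counts in WT, 635 in dgcr8-/- cells and 354 in dicer-/- cells. That is 24.2, 57.1 and 28.8 CPM, a level 2.36-fold that of WT (2.03 to 2.75) in dgcr8-/- cells and 1.19-fold (1.01 to 1.41) in dicer-/- cells. Dhx58 encodes LGP2, a related helicase without signalling domains that tunes RIG-I and MDA5. It had 33, 42 and 13 counts in the same order, 1.14-fold the WT level (0.70 to 1.85) in dgcr8-/- cells and 3.15-fold lower (1.61 to 6.51) in dicer-/- cells. Eif2ak2 encodes PKR, the kinase that halts translation when it binds double-stranded RNA, and had 12.3 CPM in WT, 20.9 in dgcr8-/- cells and 14.2 in dicer-/- cells. Its ratios to WT were 1.70 (1.36 to 2.13) and 1.16 (0.91 to 1.47). Adar encodes the deaminase that edits adenosine to inosine in such RNA and had 44.6, 50.3 and 34.3 CPM. Its level in dgcr8-/- cells was 1.13-fold that of WT (0.99 to 1.28), and in dicer-/- cells it was 1.30-fold lower (1.14 to 1.49).

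**Figure D2:**
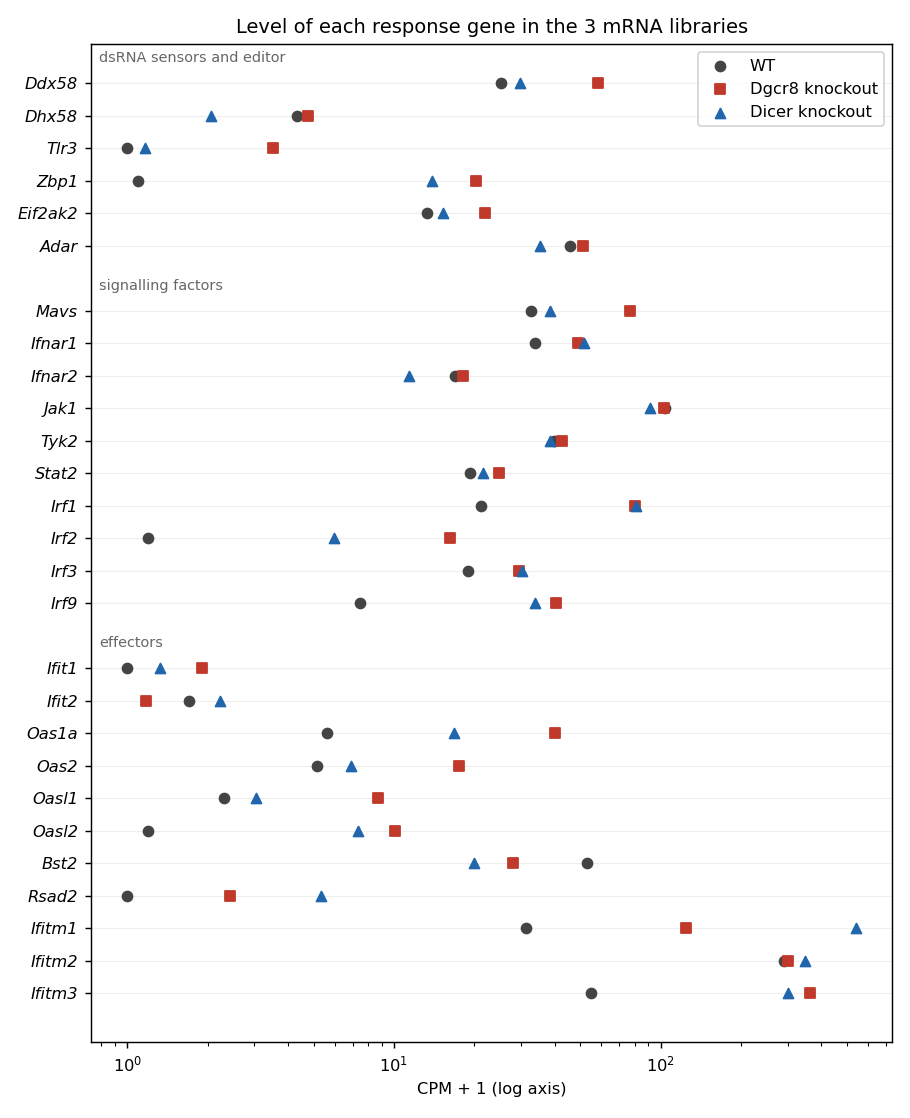
CPM + 1 of each of the 27 response genes on a log axis, with 1 point per library (circle WT, square dgcr8-/-, triangle dicer-/-); points compare libraries within a gene, since transcript length differs between genes. The WT circle of Zbp1, Irf2, Oasl2, Irf9 and Ifitm3 stands left of both knockouts, and that of Bst2 stands right of both.

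Among the signalling factors, the genes of the receptor, its kinases and STAT2 stayed under 2-fold against WT in both knockouts, Irf1, Irf2 and Irf9 were over 2-fold higher in both, and Mavs was so in dgcr8-/- cells. Of the 10, 4 were at least 2-fold higher in dgcr8-/- cells and 3 in dicer-/- cells, beside 13.7% and 15.5% of all rows. The median log2 ratios of the 10 were 0.58 and 0.43. Ifnar1 had 32.8 CPM in WT, 47.8 in dgcr8-/- cells and 50.7 in dicer-/- cells, 1.46-fold (1.27 to 1.68) and 1.54-fold (1.35 to 1.77) the WT level. Ifnar2, the other receptor subunit gene, had 15.9, 17.1 and 10.4 CPM and was 1.53-fold lower (1.20 to 1.95) in dicer-/- cells. Jak1 had 102.5, 102.1 and 89.9 CPM, Tyk2 had 38.8, 41.8 and 37.5 CPM and Stat2 had 18.3, 23.7 and 20.6 CPM. The ratios of Ifnar2, Tyk2 and the effector gene Ifitm2 in dgcr8-/- cells, between 1.03 and 1.08, went under 1 with median-ratio or TMM scaling. Mavs, the adaptor gene, had 313 counts in WT, 842 in dgcr8-/- cells and 462 in dicer-/- cells. Its level was 2.40-fold that of WT (2.11 to 2.74) in dgcr8-/- cells and 1.19-fold (1.03 to 1.38) in dicer-/- cells, close to the values of Ddx58.

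Irf1, a factor induced by interferon gamma that binds interferon response elements, was higher in both knockouts by a similar ratio. It had 201 counts in WT, 881 in dgcr8-/- cells and 980 in dicer-/- cells, a ratio of 3.91 (3.35 to 4.58) and of 3.93 (3.38 to 4.60). Irf9, the gene of the DNA-binding partner of STAT2, had 64, 440 and 404 counts. Its ratios were 6.14 (4.71 to 8.11) and 5.09 (3.90 to 6.74). Irf2, which often opposes IRF1 at the same elements, had 2, 170 and 61 counts. The ratios were 75.9 (20.7 to 632) in dgcr8-/- cells and 24.6 (6.53 to 208) in dicer-/- cells, and the 2 WT counts set their width. Irf3, which is activated by phosphorylation and is not mainly controlled by its mRNA, had 18.02, 28.4 and 29.2 CPM, 1.58-fold (1.31 to 1.90) and 1.62-fold (1.35 to 1.95) the WT level.

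**Figure D3:**
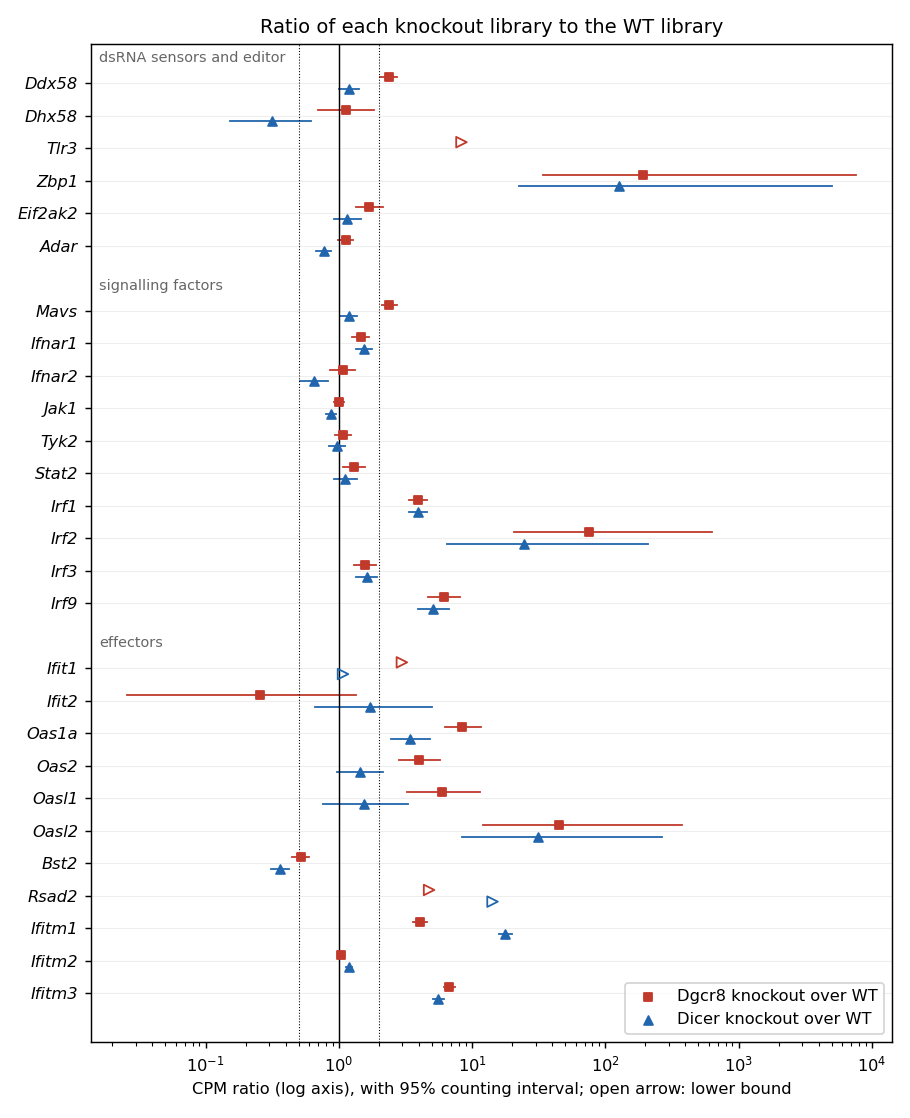
CPM ratio of each knockout library to the WT library for the 27 response genes, on a log axis, with bars for the 95% counting interval and open arrows for lower bounds against 3 counts where WT was at 0. The solid line marks equal levels and the dotted lines 2-fold; Bst2 lies left of the solid line in both knockouts, and the bars of Zbp1, Irf2 and Oasl2 are wide because WT had 1 or 2 counts.

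Promoter sequence is shown for genes of this set because 2 short motifs mark interferon control: the core of the interferon-stimulated response element, GAAA, any 2 bases and GAAA again, bound by IRF factors, and the gamma-activated sequence, TTCNNNGAA, found in genes that answer to interferon gamma. Both strands were searched in RefSeq promoter windows of the assembly GRCm38.p6, from 250 bases before to 50 bases after the annotated start. Of the 32 listed genes 28 have a window. The response element core was found for 13 of these 28 genes (46.4%), beside 3.99% of all 27025 genes with a window and 3.44% of all 32851 windows. It was found for 8 of 12 effectors, 3 of 5 sensors and 2 of 11 signalling factors. The gamma-activated sequence was found for 10 of the 28 (35.7%), beside 9.55% of all genes and 8.30% of all windows. Among genes of the mRNA table with a window, 5 of the 10 that hold the response element core were at least 2-fold higher in dgcr8-/- cells, as were 7 of the 14 that do not, and the figures for dicer-/- cells were 4 of 10 and 4 of 14. A match is a description of letters, and the cells' binding of any factor was not measured.

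The window of Irf1 at chr11:53769764-53770063 (plus strand) carries 1 gamma-activated sequence, in capitals, from 90 to 82 bases before the start. A further window of Irf1 holds neither motif.
Irf1: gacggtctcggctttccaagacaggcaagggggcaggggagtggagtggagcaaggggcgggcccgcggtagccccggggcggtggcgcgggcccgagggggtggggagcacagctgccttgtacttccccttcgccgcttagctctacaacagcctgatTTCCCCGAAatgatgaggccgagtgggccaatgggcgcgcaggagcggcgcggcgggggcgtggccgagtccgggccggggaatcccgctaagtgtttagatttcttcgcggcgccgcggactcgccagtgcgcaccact

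Sites of the response element core in other sensor, signalling and effector genes are shown with 10 bases on either side (9 before the core of Irf2, where the window begins), the core in capitals. The genes differ in how they stood against WT: Ddx58 was over 2-fold higher in 1 knockout, Irf2 and Rsad2 in both, and Eif2ak2 and Stat2 in neither. Bst2 was lower in both, but by at least 2-fold only in dicer-/- cells. The sites lie at chr4:40239804-40239833 (Ddx58, minus strand), chr17:78882535-78882564 (Eif2ak2, minus strand), chr10:128270266-128270295 (Stat2, plus strand), chr8:46739495-46739523 (Irf2, plus strand), chr8:71537583-71537612 (Bst2, minus strand, the first of its overlapping pair) and chr12:26456553-26456582 (Rsad2, minus strand).
Ddx58: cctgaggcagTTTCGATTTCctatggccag
Eif2ak2: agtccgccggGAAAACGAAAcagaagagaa
Stat2: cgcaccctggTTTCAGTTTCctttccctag
Irf2: tggggaagtGAAAATGAAAttgacttttc
Bst2: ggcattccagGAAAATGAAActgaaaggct
Rsad2: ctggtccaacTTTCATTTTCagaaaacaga

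Of the 11 effectors 7 were at least 2-fold higher in dgcr8-/- cells, beside 13.7% of all rows. In dicer-/- cells 5 were higher and 1 lower, beside 15.5% and 9.41% of all rows. The median log2 ratios of the 11 were 1.77 and 0.43. The oligoadenylate synthetase genes were the effector family with the most members above 2-fold in dgcr8-/- cells. These enzymes make the second messenger that activates RNase L when they bind double-stranded RNA, and the OAS-like proteins carry the same fold with ubiquitin-like domains. Oas1a had 46 counts in WT, 436 in dgcr8-/- cells and 194 in dicer-/- cells. That is 4.63, 39.2 and 15.8 CPM, with ratios of 8.46 (6.24 to 11.7) and 3.40 (2.46 to 4.80). Oas2 had 41, 184 and 73 counts, 4.01-fold the WT level (2.84 to 5.77) and 1.44-fold (0.97 to 2.16). Oasl1 had 13, 86 and 25 counts, 5.91-fold (3.28 to 11.5) and 1.55-fold (0.76 to 3.30). For Oas2 and Oasl1 the interval for dicer-/- cells includes 1. Oasl2 had 2, 101 and 78 counts, with ratios of 45.1 (12.2 to 377) and 31.5 (8.42 to 264). Its window holds neither motif.

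Oas1a belongs to a cluster of copies, and how reads were shared between near-identical copies in the authors' counting is not stated in the labels. Its neighbour Oas1g had 31, 256 and 91 counts, log2 ratios of 2.54 and 1.03. Further along the same cluster, Oas1c had 86, 138 and 113 counts and Oas3 had 77, 62 and 35, with log2 ratios of -0.41 and -1.19. So genes of the same cluster stood on opposite sides of WT in dicer-/- cells. In dgcr8-/- cells Oas3 was also under WT, but its counting interval included 1. The promoter window of Oas1a at chr5:120907476-120907775 (minus strand) carries a pair of overlapping response element cores ending 5 bases before the start, and a gamma-activated sequence from 98 to 90 bases before it, all in capitals.
Oas1a: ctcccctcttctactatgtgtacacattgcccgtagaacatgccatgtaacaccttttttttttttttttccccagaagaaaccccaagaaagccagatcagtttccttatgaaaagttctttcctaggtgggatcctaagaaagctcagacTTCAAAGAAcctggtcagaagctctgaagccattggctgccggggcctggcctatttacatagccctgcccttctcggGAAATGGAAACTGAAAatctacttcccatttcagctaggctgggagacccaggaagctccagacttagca

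The IFITM genes encode small membrane proteins that block virus entry at the endosome, and they lie side by side in the order Ifitm5, Ifitm2, Ifitm1, Ifitm3. Ifitm3 and Ifitm1 were higher in both knockouts, and Ifitm2, between them and Ifitm5, was nearly level. Ifitm3 had 534 counts in WT, 4035 in dgcr8-/- cells and 3691 in dicer-/- cells, 6.75-fold (6.16 to 7.40) and 5.58-fold (5.09 to 6.12) the WT level. Ifitm1 had 301, 1374 and 6636 counts, or 30.3, 124 and 539 CPM. Its ratios were 4.08 (3.60 to 4.63) in dgcr8-/- cells and 17.8 (15.8 to 20.03) in dicer-/- cells, the highest of the 27 genes there on the log2(CPM + 1) scale. Ifitm2 had 2881, 3329 and 4272 counts, 1.03-fold (0.98 to 1.08) and 1.20-fold (1.14 to 1.25). Ifitm5 had 5, 10 and 23 counts. The next genes with a row on either side, Pgghg and B4galnt4, had log2 ratios of 0.47 and 0.84 in dgcr8-/- cells and 0.13 and 0.91 in dicer-/- cells.

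The 3 promoter windows differ in their motifs, in capitals below: Ifitm3 at chr7:141010695-141010994 (minus strand) holds a pair of response element cores and a gamma-activated sequence that overlaps the second core, Ifitm2 at chr7:140955912-140956211 (minus strand) holds 1 core, and Ifitm1 at chr7:140967826-140968125 (plus strand) holds neither motif. Ifitm3, which holds both motifs, was 6.75-fold the WT level in dgcr8-/- cells and 5.58-fold in dicer-/- cells. Ifitm1, with the largest difference from WT of the 27 genes in dicer-/- cells on log2(CPM + 1), has no match in its window. Ifitm2, nearly level, has 1 match.
Ifitm3: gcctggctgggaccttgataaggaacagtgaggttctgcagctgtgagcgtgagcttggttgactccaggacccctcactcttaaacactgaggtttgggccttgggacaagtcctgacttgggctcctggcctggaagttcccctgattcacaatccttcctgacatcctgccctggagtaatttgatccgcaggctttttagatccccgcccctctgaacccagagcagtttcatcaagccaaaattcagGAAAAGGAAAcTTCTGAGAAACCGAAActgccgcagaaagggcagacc
Ifitm2: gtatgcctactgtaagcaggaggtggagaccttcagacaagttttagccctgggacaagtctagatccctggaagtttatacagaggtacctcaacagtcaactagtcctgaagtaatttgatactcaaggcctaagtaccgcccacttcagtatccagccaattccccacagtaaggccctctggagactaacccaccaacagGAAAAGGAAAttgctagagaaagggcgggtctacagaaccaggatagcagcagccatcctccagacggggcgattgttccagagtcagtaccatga
Ifitm1: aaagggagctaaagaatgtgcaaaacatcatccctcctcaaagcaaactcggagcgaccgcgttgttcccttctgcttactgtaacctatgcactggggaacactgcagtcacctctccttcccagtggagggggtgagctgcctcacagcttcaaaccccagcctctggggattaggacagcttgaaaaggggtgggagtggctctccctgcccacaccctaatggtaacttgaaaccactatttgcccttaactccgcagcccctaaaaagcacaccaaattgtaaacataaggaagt

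The other effectors were at low counts or went the other way. Rsad2 encodes viperin, an enzyme that makes a chain-terminating nucleotide, and had 0 counts in WT, 16 in dgcr8-/- cells and 53 in dicer-/- cells. It was at least 4.76-fold and at least 14.2-fold higher than the floor of 3 counts. Ifit1 encodes a protein that binds RNA without a 2'-O-methylated cap, and had 0, 10 and 4 counts, at least 2.98-fold and at least 1.08-fold above that floor. It stayed under 1 CPM in every library. Ifit2, which lies in the same cluster, had 7, 2 and 15 counts, and its intervals against WT include 1 in both knockouts. Bst2 encodes tetherin, which holds budding virus at the cell surface. It had 518, 301 and 234 counts, 1.93-fold lower than WT (1.67 to 2.23) in dgcr8-/- cells and 2.74-fold lower (2.35 to 3.22) in dicer-/- cells. Of the 27 genes, Bst2 was the one whose intervals against WT lay under 1 in both knockouts.

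A direct comparison of both knockouts leaves WT out. Of the 27 genes 6 were at least 2-fold higher in dgcr8-/- than in dicer-/- cells and 2 at least 2-fold lower, beside 3.9% and 4.75% of all rows. The 6 were Tlr3, Dhx58, Irf2, Oas1a, Oas2 and Oasl1, and the 2 were Rsad2 and Ifitm1. The median log2 ratio was 0.49, beside 0.00 for all rows, and 20 of the 27 lay above 0, beside 49.97% of all rows. The 6 sensors were all higher in dgcr8-/- cells, and their counting intervals all lay above 1. The share of all rows with an interval above 1 was not computed. The log2 ratios of the sensors ran from 0.52 (Eif2ak2) to 1.60 (Tlr3). Tlr3 was 15.5-fold higher (3.91 to 134), from 28 and 2 counts, and Dhx58 3.58-fold higher (1.88 to 7.26). Ddx58 was 1.98-fold higher (1.74 to 2.27) and Mavs 2.02-fold higher (1.80 to 2.26), both just short of the call on log2(CPM + 1). Zbp1, Eif2ak2 and Adar were 1.51-fold (1.22 to 1.86), 1.47-fold (1.20 to 1.80) and 1.47-fold (1.29 to 1.67) higher.

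Among signalling factors, Irf2 was 3.08-fold higher in dgcr8-/- cells (2.29 to 4.20), while the intervals of Irf1, at 0.995-fold (0.91 to 1.09), and Irf3, at 0.97-fold (0.83 to 1.13), include 1. Ifnar2 was 1.64-fold higher (1.31 to 2.07) and Irf9 1.21-fold higher (1.05 to 1.38). Among the effectors, Oasl1 was 3.81-fold higher (2.41 to 6.20), Oas2 2.79-fold (2.12 to 3.71), Oas1a 2.49-fold (2.10 to 2.96) and Oasl2 1.43-fold (1.06 to 1.95). Ifitm1 was 4.36-fold lower (4.12 to 4.63) and Rsad2 2.99-fold lower (1.69 to 5.61). Ifit2 was 6.78-fold lower (1.58 to 61.1), from 2 and 15 counts, short of the call on log2(CPM + 1). Ifitm3 and Bst2 were 1.21-fold (1.16 to 1.27) and 1.42-fold (1.20 to 1.70) higher. Over the 27 genes, 17 intervals lay above 1 and 4 below it, but the matching shares of all rows were not computed. With many counts an interval leaves out 1 at a small ratio, as for Ifitm3. With a pseudocount of 5 CPM the counts were 2 higher and 1 lower, beside 1.32% and 1.61% of all rows.

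**Figure D4:**
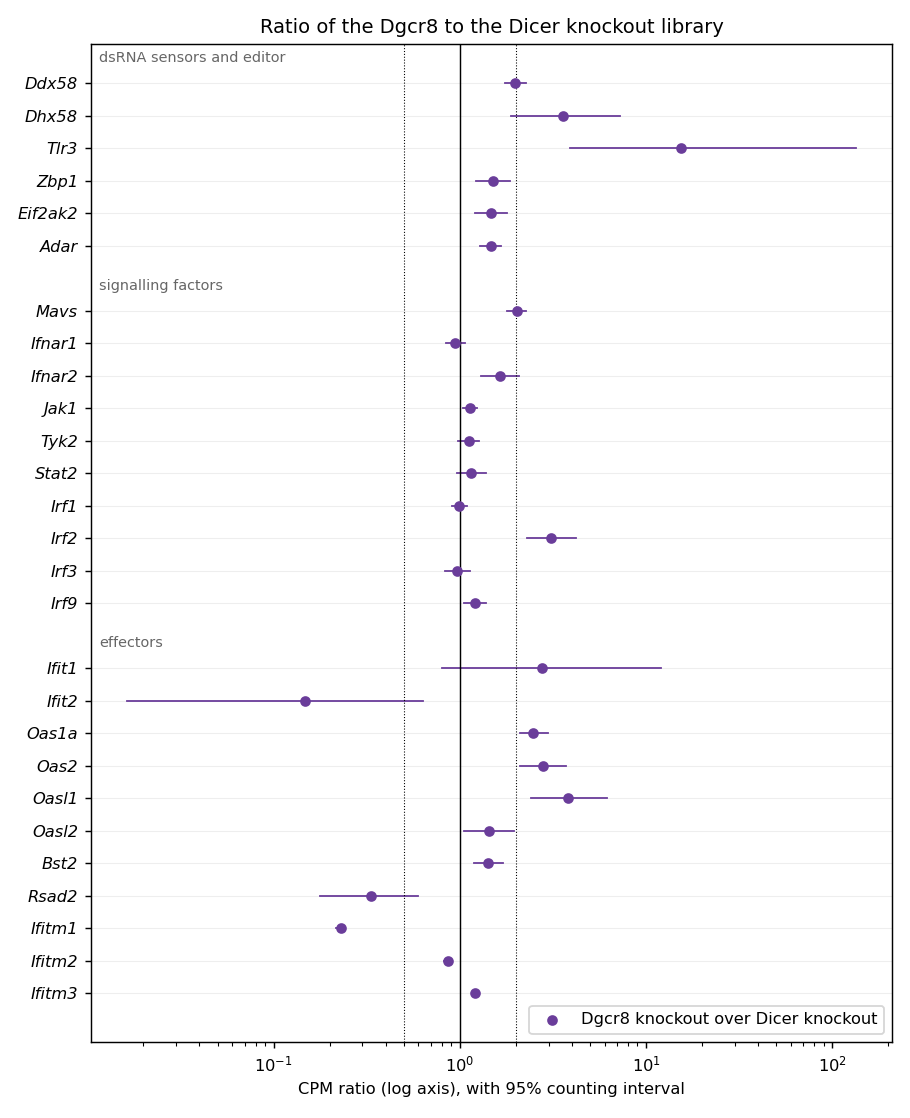
CPM ratio of dgcr8-/- to dicer-/- cells, 1 library each, for the 27 response genes, on a log axis, with bars for the 95% counting interval and dotted lines at 2-fold. All 6 sensors lie right of the solid line at equal levels, and Ifitm1, at 4.36-fold lower, lies farthest left among genes with narrow bars.

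Other genes of the pathway were taken as lists of 106 genes by role, of which 82 have a row. Of 43 further interferon-stimulated effectors 32 have a row; 19 were at least 2-fold higher and 0 lower in dgcr8-/- cells, and 19 were higher and 2 lower in dicer-/- cells. Their median log2 ratios were 1.503 and 1.16. Of the 32, 14 had fewer than 10 counts in WT and so have a row only through a knockout. Of all rows, 13.7% were called higher and 7.67% lower in dgcr8-/- cells, and 15.5% and 9.41% in dicer-/- cells. Among members at 5 CPM or more in 1 library, the largest differences from WT on log2(CPM + 1) were those of Nmi, which encodes an interferon-induced protein, Irgm1, an immunity-related GTPase gene, and Lgals3bp, a secreted glycoprotein gene. Nmi had 10 counts in WT, 212 in dgcr8-/- cells and 145 in dicer-/- cells, with ratios of 18.9 (10.1 to 40.05) and 11.7 (6.18 to 24.9). Irgm1 had 4, 107 and 175 counts, and Lgals3bp had 6, 164 and 44. The 2 lower in dicer-/- cells were Xaf1 and Oas3, named after their values were seen. Mx1 and Mx2, which encode antiviral GTPases, have no row and were not analysed here.

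Of 21 further nucleic acid sensors and adaptors 19 have a row, 5 of them at least 2-fold higher and 1 lower in dgcr8-/- cells, and 6 and 1 in dicer-/- cells. Rnf135, a ubiquitin ligase gene for RIG-I, had 7, 81 and 146 counts, and Zc3hav1, which encodes the antiviral protein ZAP, had 54, 287 and 310. Nlrx1, a mitochondrial protein gene reported to dampen MAVS signalling, had 182, 89 and 38 counts, 2.29-fold lower (1.77 to 2.99) and 5.94-fold lower (4.17 to 8.66) than WT. Of 28 further signalling factors 27 have a row, 4 higher and 2 lower in dgcr8-/- cells, and 2 higher and 4 lower in dicer-/- cells. For both lists, the shares of all rows were 13.7% higher and 7.67% lower in dgcr8-/- cells, and 15.5% and 9.41% in dicer-/- cells. Irf2bp2, which encodes a corepressor that binds IRF2, had 173, 827 and 1095 counts. Irf5 had 76, 42 and 14 counts and Tbkbp1, an adaptor gene of the kinase TBK1, had 116, 71 and 29, both lower in the knockouts.

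Of the 14 interferon ligands and other receptors listed, the 10 interferon genes, Ifnb1 included, have no row and were not analysed here. Of the 4 receptor genes with a row 1 was at least 2-fold higher in dgcr8-/- cells and 2 in dicer-/- cells, beside 13.7% and 15.5% of all rows. Ifnlr1, a receptor gene for type III interferon, had 17 counts in WT, 99 in dgcr8-/- cells and 61 in dicer-/- cells, with ratios of 5.20 (3.09 to 9.28) and 2.90 (1.67 to 5.29). For type II interferon, Ifngr2 had 41, 94 and 219 counts and Ifngr1 had 54, 132 and 86.

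**Figure D5:**
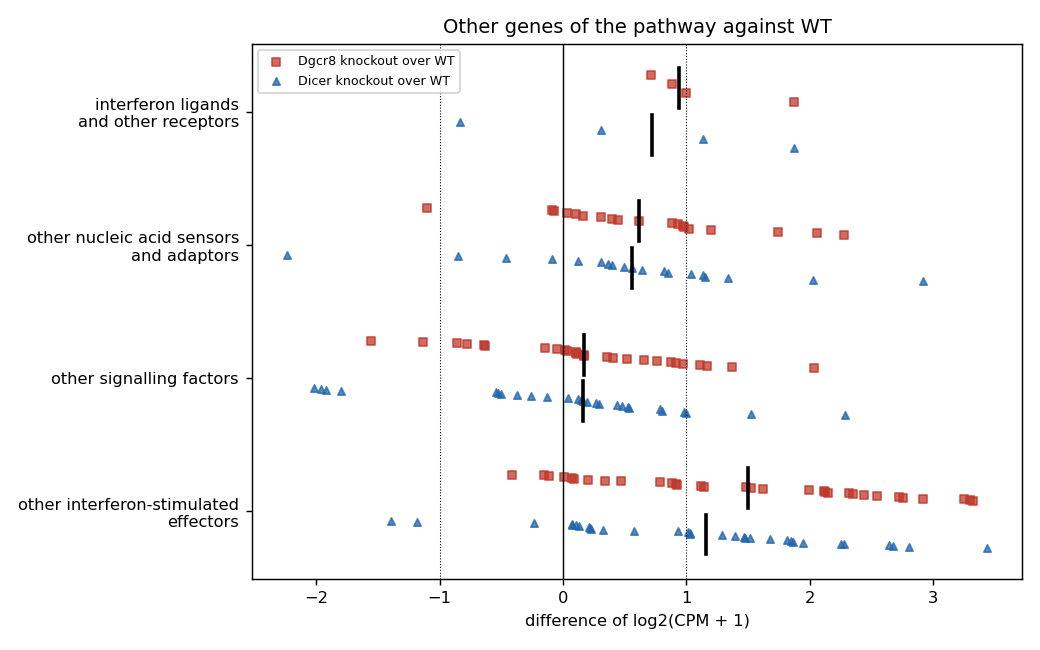
Difference of log2(CPM + 1) to WT for the 82 other pathway genes with a row, by list, with squares for dgcr8-/- cells, triangles for dicer-/- cells and black bars for medians; dotted lines mark 2-fold. The medians of the further interferon-stimulated effectors stand at 1.503 and 1.16, and those of the further signalling factors at 0.17 and 0.16.

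A miRNA reported elsewhere to repress Mavs in mouse embryonic stem cells, miR-673, was looked up in the WT small RNA table of 2594949 reads over 707 mature miRNAs. Both arms are shown with the seed, bases 2 to 8, in capitals, from RefSeq (GRCm38.p6, chr12:109572004-109572025 and chr12:109572044-109572066, plus strand).
miR-673-5p: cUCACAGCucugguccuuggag
miR-673-3p: uCCGGGGCugaguucugugcacc
The 5p arm had 51 reads, 19.7 reads for each 1000000 (exact interval 14.6 to 25.8) and rank 276, and the 3p arm had 8 reads, 3.08 for each 1000000 (1.33 to 6.07). Mavs was 2.40-fold the WT level in dgcr8-/- cells and 1.19-fold in dicer-/- cells. Canonical miRNAs need both DGCR8 and Dicer, and whether miR-673 bears on Mavs in these cells was not tested. Target sites in Mavs were not searched, and no small RNA library of the knockouts was analysed here.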

How the data were processed

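Counts per RefSeq transcript entry in 3 mRNA libraries, and reads per mature miRNA in 1 small RNA library, are raw counts as the authors deposited them. Per the submitters' processing notes, Bowtie (no version) and the mouse build mm9 were used. The sources used here do not give the counting tool, its annotation or its strand setting. Per the labels' protocols, the mRNA kit was stranded. Empty cells were read as 0 (252 in WT, 221 in the Dgcr8 knockout, 138 in the Dicer knockout), and every row reaches 10 counts in 1 library. Members were matched by symbol or by the current symbol of the RefSeq entry.

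CPM values use each library's table total (1 CPM is 9.93, 11.1 and 12.3 counts). A gene was called at a 2-fold difference of log2(CPM + 1), which understates low genes, with no floor on low values. Ratios are ratios of CPM with exact conditional binomial 95% intervals in scipy 1.17.1; a ratio to 0 is given as a lower bound, with 3 counts put in place of 0. Intervals and floors cover counting error only, since PCR reads are not independent molecules. The calculation of the calls was checked on simulated libraries with 4-fold changes in rows of higher counts, with counting error only. That check did not cover 2-fold changes, low counts or differences between replicates, so it does not bear on the calls of low genes. Every member with a row is named, with its counts or CPM; of the other lists, up to 3 genes each with the largest difference from WT on log2(CPM + 1) at 5 CPM or more in 1 library, and Mx1; 1 further gene the rule names is not reported here. The planned comparison of proteins was not made, as no protein sequences were used here. Members and lists were chosen with earlier results of these data known. Alternatives changed pseudocount, floor, scaling (median-ratio, or TMM by edgeR 4.0.16 in R 4.3.3) and fold.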

Additional observations from a re-analysis of the deposited data

How the results depend on the processing

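With 1 library per group, depth and the lack of replicates limit every value, and 7 of the 27 genes had fewer than 10 counts in WT. The counts of genes higher in the knockouts than in WT moved by over 1.5 times in 1 case: at a 4-fold threshold 6 genes were higher in the Dgcr8 knockout in place of 14. The share of all rows called higher moved as well, to 2.48% in place of 13.7%. In that knockout the count lower was 1 in place of 0 with a pseudocount of 0.1 CPM, where the gene was Ifit2, at 7 WT counts and 2. It was also 1 with median-ratio or TMM scaling or a 1.5-fold threshold, where the gene was Bst2. The share of all rows lower was 11.3% with that pseudocount, 9.76% and 9.36% with the scalings and 17.1% at 1.5-fold, in place of 7.67%. In the Dicer knockout the count lower was 1 in place of 2 with a pseudocount of 5 CPM or a floor of 5 CPM on the mean of the 3 libraries, which genes high only in a knockout can pass, and 0 at 4-fold. The shares of rows lower were 4.28%, 7.06% of rows passing the floor, and 1.69%, in place of 9.41%. Between the knockouts, the counts higher and lower were 2 and 1 with a pseudocount of 5 CPM, 3 and 1 with the floor, and 0 and 1 at 4-fold, in place of 6 and 2. The shares of rows were 1.32% and 1.61%, then 3.18% and 2.97% of rows passing the floor. At 4-fold they were 0.456% and 0.825%, in place of 3.9% and 4.75%. A pseudocount of 5 CPM gave a median of 0.58 in the Dgcr8 knockout in place of 1.21, and the medians of the Dicer knockout ran from 0.22 to 0.63 over pseudocounts. A larger pseudocount shrinks the ratios of low genes by construction. Requiring the interval of halved counts to exclude 1 left all counts as they were. These genes have 1 row each, so a choice between rows of the same symbol could not change their counts and was not tested. No paired analysis was possible because each group has 1 library.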
